A study of Populus tremula x Populus alba with 3 samples.

Results

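The comparison described here is the KD5 knockdown line against wild type (WT) at gene promoters in shoot apices of poplar, the Populus tremula x Populus alba hybrid INRA clone 717-1B4. KD5 carries an RNA interference construct against PtaDML10. A second line against the same gene, KD2, is given beside KD5 where it helps to read a value. WT carries no construct. All 3 genotypes had 4 weeks of long days (16 h light, 21 °C), 12 weeks of short days (8 h light, 19 °C) and 4 weeks of cold (4 °C, short days). For each genotype, 15 apical buds from 15 plants, still closed, went into 1 whole genome bisulfite library, in which cytosines without a methyl group are read as thymines. What promoter drives the interference construct is not stated, and KD5 is a single transgenic line. With 1 pooled library per genotype there are no replicates, so no difference below has an error or a p-value, and each is a difference between those libraries. Buds are mixed tissue, so a gain present in every cell and a larger gain in part of the cells cannot be told apart.

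DNA methylation in plants sits on cytosines in 3 sequence contexts, CG, CHG and CHH, where H is any base but G. Separate enzymes keep up each context: MET1 copies CG methylation, chromomethylases keep CHG, and CHH has to be laid down anew, in part by small RNAs. DEMETER-like proteins such as PtaDML10 work in the opposite direction, cutting methylated cytosines out of DNA so that an unmethylated base can be put back. Promoter methylation in plants is often, though not always, found with lower transcription.

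The members are all promoters in the authors' 3 promoter tables, 49 for CG, 30 for CHG and 21 for CHH. These 100 entries belong to 83 genes, of 577 genes in the 6 tables of the series. The tables list genes whose promoter was hypermethylated in both knockdowns and whose expression differed, so every member had passed the authors' thresholds and none measures how common such gains are in the genome. The gain is the methylation level in KD5 minus that in WT, in percentage points, for the region called hypermethylated. Coordinates below are those of the promoter window. How much of the window the called region covers is not analysed here. The deposited differences are all negative although the tables are titled as hypermethylated, so their sign was turned here. Expression is given by the authors' logFC, 1 value per gene for the knockdowns, and logCPM, the expression level. Neither the log base nor the direction of the logFC is stated, so genes are said to have a positive or a negative logFC only. The level of PtaDML10 is not analysed here, so the knockdown could not be checked. No level per library was used, so the bud label was not checked against apex markers either.

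A promoter here was in most cases a window of 2000 bases that ends at the base before the gene. This held for 28 of the 30 promoter genes whose gene coordinates were also given, all on the strand of the gene. No genome build is stated for them. The gene names are those of Populus trichocarpa gene models, and coordinates are as deposited. For 10 genes the window is shorter and lies elsewhere than the gene's identifier says, 9 of them on another chromosome and 1 for an identifier that names no chromosome. For 2 of them, Potri.003G068500 and Potri.017G033400, gene coordinates were also given and lie on another chromosome than the window. By these coordinates the window is not the promoter of the gene. The other windows may not be the promoters of the genes they are listed with either. Such windows are pointed out where the text describes a gene, but not again at each later mention or in the captions. Among the 29 genes with a KD5 gain of at least 30 points, 5 have such a window.

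KD5 gains started near the same lower edge in every context and reached highest in CG. In CG the gain ran over promoters from 16 to 100 points, with a median of 25.6 and quartiles of 19.7 and 34.1. In CHG it ran between 15.1 and 52 points, with a median of 21.8 and quartiles of 18.3 and 26.7. In CHH the range was 15.1 to 39.9 points, the median 20 and the quartiles 16.9 and 30.2. No listed gain is under 15 points, and entries that the authors' threshold left out are not analysed here.

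A gain of at least 30 points in KD5 was counted for 20 of 49 CG promoters (40.8%), 3 of 30 CHG promoters (10%) and 7 of 21 CHH promoters (33.3%). Over all contexts this makes 29 of 83 genes (34.9%), and these shares are the background for the counts of members below. The low CHG share depends on the limit: at 25 points, 25 of 49 CG, 12 of 30 CHG and 9 of 21 CHH promoters are counted. In CHG most promoters, 16 of 30, lay between 20 and 30 points. In CHH, 10 promoters lay under 20 points, 7 from 30 to 40 and 4 in between. In CHH these limits cut a run of values without a clear gap, with neighbouring entries at 30 and 28.1 points and at 20 and 19.9. In CHG the entries on either side of 30 points were at 37.0 and 29.5. Gains of 40 points or more occurred at 7 CG promoters, 2 CHG promoters and no CHH promoter. In KD2, 6 CG, 4 CHG and 3 CHH promoters stood at 30 points or more, and both lines are set against the same WT library. Taking all contexts together, the entry nearest the 30-point line from above was at 30 points and the nearest from below at 29.5.

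**Figure D1:**
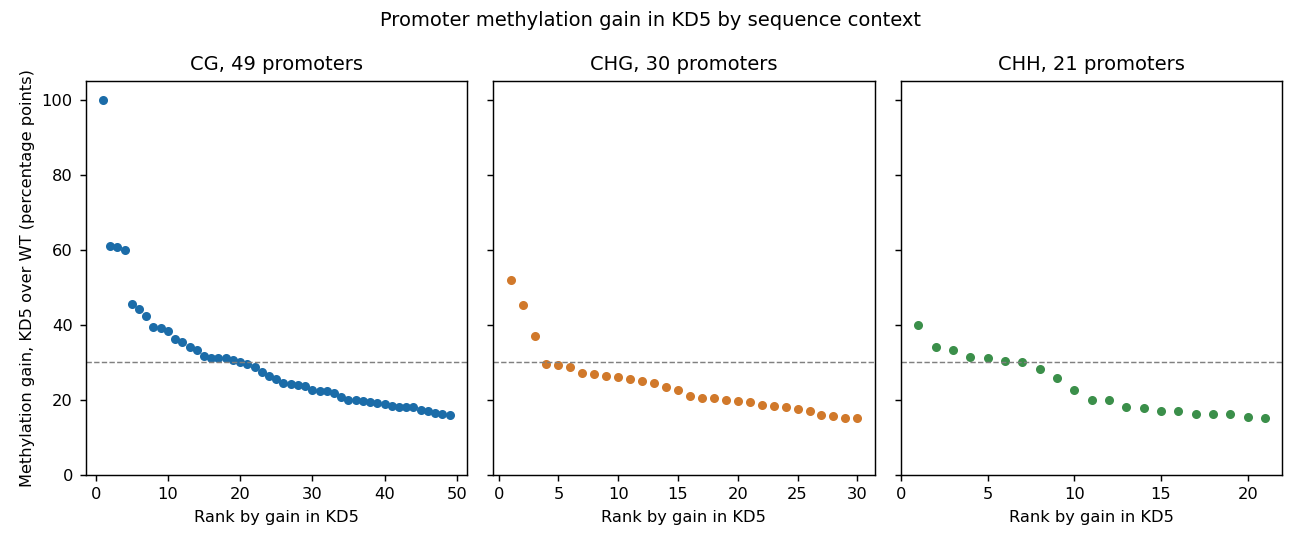
Each point is 1 promoter, ordered by its methylation gain in KD5 over WT (y axis, percentage points) within CG, CHG and CHH, and the dashed line marks 30 points. CG has 1 promoter at 100 points and 3 near 60, CHG has 2 above 40, and CHH ends at 39.9.

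The largest KD5 gain was the largest possible. In the authors' deposited table the CG promoter of Potri.001G149800 (chromosome 1, 12336746 to 12338745) gained 100 points in KD5 and 92 in KD2. A gain of 100 points leaves 1 pair of levels, full CG methylation of the called region in KD5 and none in WT. The number of reads and of cytosines behind these levels is unknown, so their precision cannot be stated. The gene is matched to an Arabidopsis locus without a description. Its logFC in the authors' deposited table was -0.69 at a logCPM of 5.52. Over all promoter genes the median absolute logFC was 1.04 and the median logCPM 4.65.

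Next came 3 CG promoters near 60 points in KD5, each far lower in KD2. Potri.001G053700 (chromosome 1, 4095954 to 4097953) had 61.0 points in KD5 and 27.1 in KD2 in the authors' deposited table, with a logFC of -1.15. Its description is blank. Potri.005G221800 had 60.9 points in KD5 and 19.96 in KD2 in the authors' deposited table, and the lowest logCPM of the genes at 30 points or more, 0.40. Its window of 1003 bases lies on chromosome 2 (2647844 to 2648846), not on chromosome 5, and the tables give it no Arabidopsis match. Potri.001G391100, a zinc-binding dehydrogenase family gene, had 60 points in KD5 and 19.4 in KD2 in the authors' deposited table, with a logFC of -2.37. By size these 3 ranked 2 to 4 in KD5, but 11, 22 and 25 among the 49 CG promoters in KD2. They were picked by their KD5 gain alone, and CG gains were lower in KD2 in general, with a median of 19.4 points against 25.6 in KD5.

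The dehydrogenase gene has a neighbour in the list. Potri.001G391200 encodes a lectin with an Apple-like carbohydrate-binding domain, and its window (chromosome 1, 40950199 to 40952198) starts 18916 bases beyond that of Potri.001G391100 (40929283 to 40931282). In the authors' deposited table it gained 45.4 points in CG in KD5 and 36.1 in KD2, with a logFC of -1.86. Both genes of this pair were thus among the 5 largest CG gains in KD5, both were weakly expressed (logCPM 1.49 and 2.10 in the authors' deposited table), and both had a negative logFC.

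The other CG promoters among the 10 largest gains belonged to genes of different functions. UCP5 (Potri.017G047800) encodes a mitochondrial carrier of dicarboxylates, and in the authors' deposited table its promoter gained 44.1 points in KD5 and 16.3 in KD2. It was rank 6 in KD5 and rank 41 in KD2. Potri.001G406900 has a blank description, and in the authors' deposited table its gain was 42.4 points in KD5 and 21.9 in KD2. A RING/U-box gene (Potri.002G224200), of a family in which many members attach ubiquitin, had 39.4 points in KD5 and 20.5 in KD2 in the authors' deposited table. The pentatricopeptide repeat gene Potri.017G091600 followed with 39.0 points in KD5 and 26.1 in KD2 in the authors' deposited table. Such proteins bind RNA in mitochondria and chloroplasts. Rank 10 went to a reticulon gene (Potri.008G004200), of a family that shapes the endoplasmic reticulum, with 38.3 points in KD5 and 28.01 in KD2 in the authors' deposited table. The logFC of the 2 organelle genes was positive in the authors' deposited table, 4.24 for UCP5 and 1.99 for Potri.017G091600, and negative for the other 8 of these 10. It was negative for 14 of the 20 CG promoters at 30 points or more and for 32 of all 49.

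The 3 smallest CG gains in KD5 were close to those of KD2. No listed CG gain of KD2 is under 15 points, so KD2 could hardly be lower there. A secE/sec61-gamma protein transport gene (Potri.001G329400) had 16.0 points in KD5 and 16.0 in KD2 in the authors' deposited table. PPR40 (Potri.008G108300), a mitochondrial pentatricopeptide repeat gene, had 16.2 points in KD5 and 16.8 in KD2 in the authors' deposited table. NF-YB13 (Potri.015G052800), a subunit of the CCAAT-binding factor, had 16.4 points in KD5 and 16.4 in KD2 in the authors' deposited table. Just above them this did not hold: a Rab5-interacting family gene (Potri.008G102200), rank 45 of 49 in KD5, had 17.4 points in KD5 and 30 in KD2 in the authors' deposited table.

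**Figure D2:**
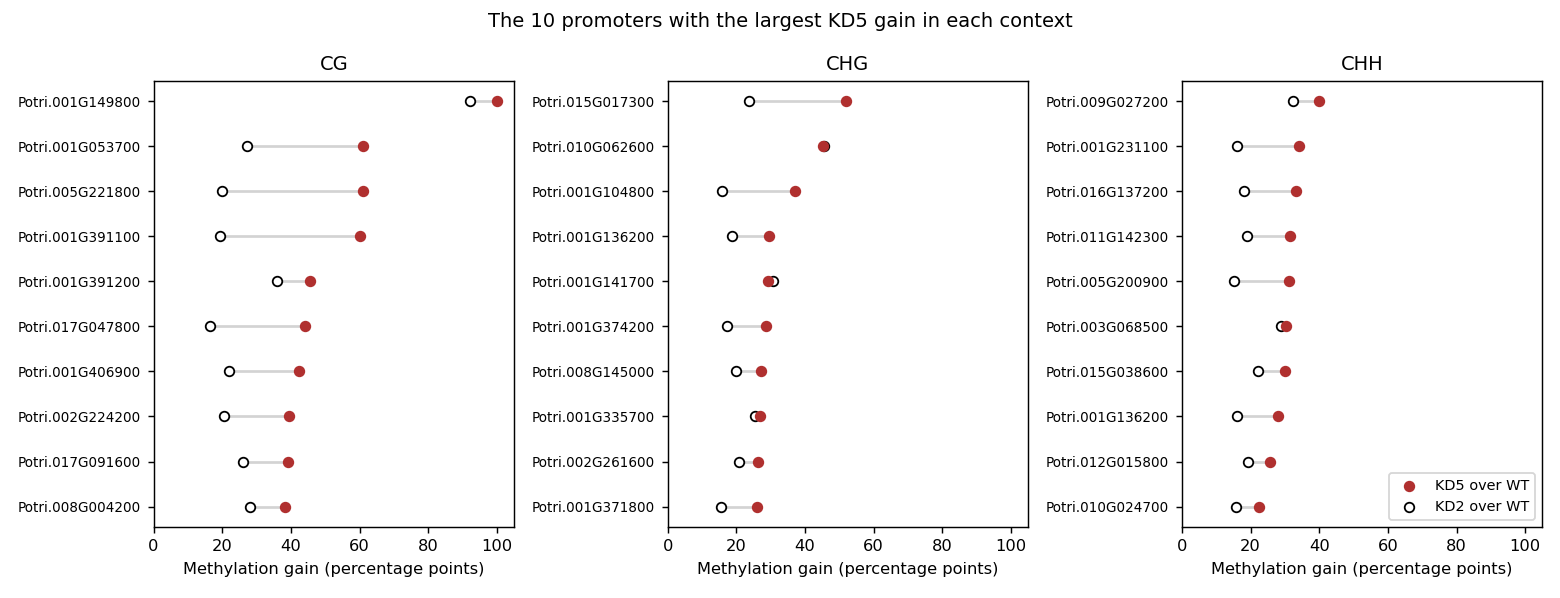
The 10 promoters with the largest KD5 gain in each context (rows), with the gain over WT in percentage points on the x axis, filled for KD5 and open for KD2. In CG the 2 lines lie at 60.9 and 19.96 points at Potri.005G221800, while in CHG they nearly coincide at Potri.010G062600.

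In CHG, 3 promoters stood apart from the rest in KD5. A Got1/Sft2-like gene (Potri.015G017300; chromosome 15, 1239874 to 1241873), of a family that works in vesicle traffic at the Golgi, led with 52.0 points in KD5 and 23.8 in KD2 in the authors' deposited table. Potri.010G062600 followed with 45.2 points in KD5 and 45.7 in KD2 in the authors' deposited table, the largest CHG gain of KD2. Its 613-base window lies on chromosome 1 rather than 10. A ribonuclease H-like gene (Potri.001G104800; chromosome 1, 8358350 to 8360349) had 37.0 points in KD5 and 15.8 in KD2 in the authors' deposited table. The logFC of the Got1/Sft2-like and the ribonuclease H-like gene was positive in the authors' deposited table, 1.10 and 1.40, and that of Potri.010G062600 was -0.73.

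Below them the CHG gains closed up, with ranks 4 to 10 between 29.5 and 26.1 points. This stretch held CSLD3, a cellulose synthase-like gene, DOT1 (Potri.001G141700), which is needed for the leaf vein pattern in Arabidopsis, and the transcription factor gene BZIP61 (Potri.001G374200). DOT1 had 29.2 points in KD5 and 30.8 in KD2 in the authors' deposited table, and BZIP61 28.7 in KD5 and 17.4 in KD2. PHB3 (Potri.001G335700), a prohibitin that forms scaffolds in the inner mitochondrial membrane, had 26.9 points in KD5 and 25.3 in KD2 in the authors' deposited table. Potri.008G145000, Potri.002G261600 and Potri.001G371800, all with a blank description, had 27.3, 26.4 and 26.1 points in KD5 in the authors' deposited table. At the low end, a SERF family gene (Potri.014G018100) had 15.1 points in KD5 and 30 in KD2 in the authors' deposited table, the gene of the smallest KD5 gain in CHG. Potri.017G033400, an RNA-binding gene with a window on chromosome 7, had 15.2 points, and Potri.015G125600 15.6, in KD5 in the authors' deposited table.

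In CHH, 7 promoters reached 30 points in KD5, with a water channel gene in the lead. TIP1;3 (Potri.009G027200; chromosome 9, 3823997 to 3825996), an aquaporin of the vacuolar membrane, had 39.9 points in KD5 and 32.4 in KD2 in the authors' deposited table. A calcium-binding EF-hand gene (Potri.001G231100; chromosome 1, 24296726 to 24298725) had 34.1 points in KD5 and 16.1 in KD2 in the authors' deposited table. A gene for a transmembrane 14C protein (Potri.016G137200) had 33.3 points in KD5 and 18.1 in KD2 in the authors' deposited table. PSBR (Potri.011G142300), a subunit of the oxygen-evolving side of photosystem II, had 31.4 points in KD5 and 18.9 in KD2 in the authors' deposited table. PDF1 (Potri.005G200900; chromosome 5, 21649077 to 21651076) is a protein of the outermost cell layer of the shoot apex in Arabidopsis. Its CHH gain was 31.1 points in KD5 and, in last place of the 21, 15.2 in KD2 in the authors' deposited table. A seven-transmembrane receptor family gene (Potri.003G068500) had 30.2 points in KD5 and 28.9 in KD2 in the authors' deposited table. This gain is listed for a window of chromosome 1, while the gene's own coordinates lie on another chromosome. TOC64-III (Potri.015G038600), an import receptor at the chloroplast surface, closed the set at 30 points in KD5 and 22.1 in KD2 in the authors' deposited table.

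The lower part of the CHH list includes promoters where KD2 was the higher line by far. No listed CHH gain is under 15 points in either line, so at the smallest KD5 gains KD2 could only be about equal or higher. Calnexin 1 (Potri.012G111100), a chaperone of the endoplasmic reticulum, had 15.4 points in KD5 and 80.0 in KD2 in the authors' deposited table. A subunit c gene of the vacuolar proton pump (VHA-C2, Potri.005G235300) had 16.2 points in KD5 and 37.6 in KD2 in the authors' deposited table. The smallest KD5 gain was that of an HRF1 family membrane protein gene (Potri.007G129900), 15.1 points in KD5 and 23.2 in KD2 in the authors' deposited table. The 2 largest CHH gains of KD2, those of calnexin 1 and VHA-C2, were thus ranks 20 and 19 of 21 in KD5.

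Of the 83 genes, 67 were listed in 1 context, 15 in 2 and 1 in all 3. CSLD3 (Potri.001G136200; chromosome 1, 10928606 to 10930605), needed for root hair tip growth in Arabidopsis, was the 1 gene in all 3. Its KD5 gains in the authors' deposited table were 28.7 points in CG, 29.5 in CHG and 28.1 in CHH, a spread of 1.36 points. The KD2 gains of CSLD3 in the authors' deposited table were 22.5, 18.7 and 16.1 points in the same order, so its contexts lay closer together in KD5.

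Among the 16 genes listed in 2 or 3 contexts, the KD5 gains of a gene lay a median of 3.84 points apart and within 5 points at 8 genes. The gap was smallest at a gene for a CUE-domain component of the ubiquitin system (Potri.018G127200), with 19.7 points in CG and 19.6 in CHG in KD5 in the authors' deposited table. It was widest at Potri.005G221800, with 60.9 points in CG and 25 in CHG in KD5 in the authors' deposited table. PDF1 was the 1 gene at 30 points or more in 2 contexts, with 36.2 points in CG and 31.1 in CHH in KD5 in the authors' deposited table. In KD2 the same PDF1 promoter had 30.1 points in CG and 15.2 in CHH in the authors' deposited table.

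Where a gene was listed in CG and CHH, its KD5 gain was larger in CG at 5 of 5 genes. The RING/U-box gene Potri.002G224200 had the widest such gap, 39.4 points in CG and 16.2 in CHH in the authors' deposited table. Other gaps were small: 28.7 and 28.1 points at CSLD3, 23.8 and 22.6 at Potri.010G024700, and 27.5 and 25.7 at Potri.012G015800. In KD2 the order turned at Potri.010G024700 (15.3 in CG, 15.8 in CHH) and Potri.012G015800 (18.8 in CG, 19.1 in CHH). Between CG and CHG, CG was larger at 5 of 8 genes. Between CHG and CHH, CHH was larger at 2 of 5, TIP1;3 and TOC64-III. TIP1;3 had 23.3 points in CHG and 39.9 in CHH in KD5 in the authors' deposited table, and TOC64-III 20.4 in CHG and 30 in CHH. Contexts of a gene come from the same library and the same window, so they are not independent of each other.

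**Figure D3:**
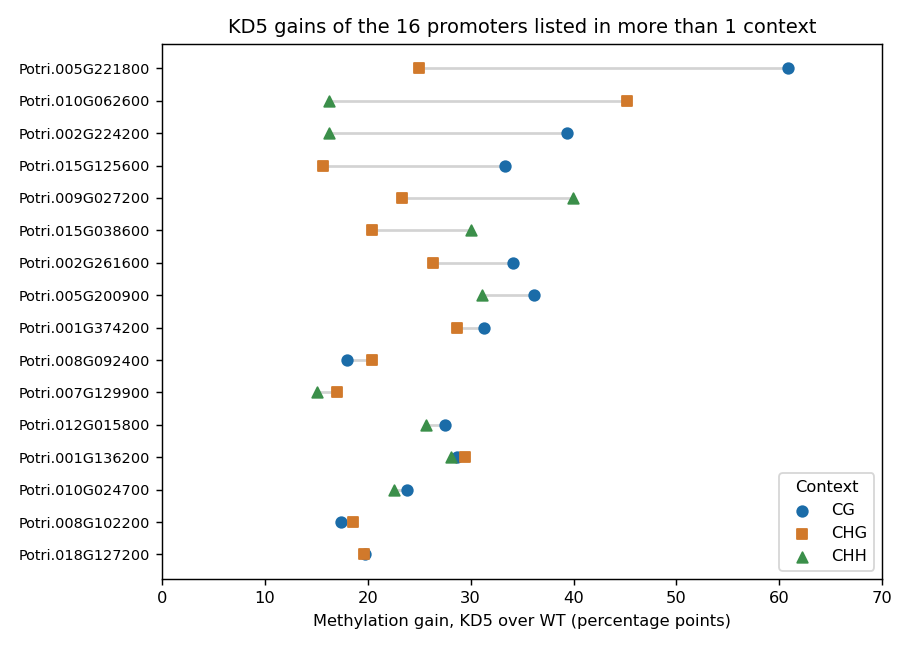
KD5 gain over WT (x axis, percentage points) of the 16 genes whose promoter is listed in more than 1 context, 1 row per gene and 1 marker per context. The rows are ordered by the gap between contexts, which is widest at Potri.005G221800 with 35.9 points and smallest at Potri.018G127200.

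The genes were also grouped by the words in their annotation. Of 16 such lists of words and Arabidopsis loci, 12 had at least 1 member, and together they covered 42 of the 83 genes. The median over all genes of a gene's largest KD5 gain was 24.3 points, and 34.9% of genes reached 30. The lists are word matches and incomplete as functional groups: NF-YB13, RL6, PHB3 and PDF1 fell into none of them. The words for meristem genes, for flowering, clock and dormancy, for hormones and for disease resistance matched no promoter gene.

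The largest list was RNA binding, splicing and translation, with 10 genes, a median largest KD5 gain of 22.0 points and 8 negative logFC values, against 55 of all 83 genes (66.3%). The 2 members at 30 points or more were Potri.017G063100, annotated as an RNA polymerase (31.5 points), and an RNA-binding gene (Potri.003G130300, 30.02 points) in the authors' deposited table. Both have a short window on chromosome 1 while their identifiers name chromosomes 17 and 3. The RNA polymerase gene is matched to a locus of the Arabidopsis chloroplast genome. A gene for ribosomal protein L36e (Potri.011G066000) had 24.4 points in CHG in KD5 in the authors' deposited table. The splicing factor gene SCL33 (Potri.006G197000) had 24.3 points in KD5 in CG in the authors' deposited table.

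Protein folding and turnover had 6 genes with a median of 19.6 points, and 1 of them, the RING/U-box gene, passed 30. A peptidase M28 family gene (Potri.006G153300), with a window on chromosome 1 rather than 6, had 21.0 points in CHG in KD5 in the authors' deposited table. The words for redox and primary metabolism, among them synthase and transferase, matched 8 genes, 3 of them at 30 points or more, with a median of 27.6 points. These include the ribonuclease H-like gene and both cellulose synthase genes, so the list is not one of metabolic enzymes alone. Besides the dehydrogenase and the ribonuclease H-like gene, Potri.001G234900, for the riboflavin synthesis enzyme GTP cyclohydrolase II, had 31.2 points in KD5 in CG in the authors' deposited table, with a logFC of 4.88.

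The words for chloroplast and for mitochondrion matched 3 and 4 genes, and other organelle genes such as PHB3 were not matched. In the chloroplast list PSBR and TOC64-III passed 30 points in CHH, and Potri.009G052500, for the 5 kD protein of photosystem II, had 22.6 points in KD5 in CG, against 38.5 in KD2, in the authors' deposited table. In the list of mitochondrial and pentatricopeptide repeat genes UCP5 and Potri.017G091600 passed 30, while PPR40 and TIM13 (Potri.011G149800), an import chaperone, had 16.2 and 18.3 points in the authors' deposited table.

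Cell wall genes numbered 3. LAC6 (Potri.014G100600) is a laccase, of an enzyme family that oxidises lignin precursors, and had 35.4 points in KD5 in CG and 18.0 in KD2 in the authors' deposited table. CSLD3 came next. CESA7 (Potri.006G181900), a cellulose synthase of secondary walls, had 18.9 points in KD5 and 27.4 in KD2 in the authors' deposited table, the reverse order of lines.

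In the transport list, TIP1;3 was the 1 of 4 genes past 30 points. The other members were VHA-C2 and 2 heavy metal transport and detoxification genes, Potri.010G024700 with 23.8 points in CG and Potri.004G073000 with 17.8 in CHH in the authors' deposited table. All 3 genes that the words for kinases, phosphatases and receptors drew in stood at 30 points or more, but they share no function. They are the lectin gene Potri.001G391200, the seven-transmembrane receptor family gene (Potri.003G068500) and PAP29 (Potri.014G109100). The window of Potri.003G068500 lies on another chromosome than the gene, so its gain is not one of the gene's promoter. PAP29 is a purple acid phosphatase with 31.1 points in KD5 in CG in the authors' deposited table.

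The DNA methylation list had 1 member among the promoter genes, and so did the chromatin list, the same gene. DDM1 (Potri.T120000) is the chromatin remodeller that Arabidopsis needs to keep its DNA methylated. In the authors' deposited table its CHH gain was 20 points in KD5 and 17.7 in KD2, at a logFC of -1.46. The window is 544 bases on chromosome 19 and the identifier names no chromosome. The words for transcription factors matched 3 genes and missed others such as NF-YB13. Of the 3, BZIP61 had 31.2 points in CG in KD5 in the authors' deposited table. Potri.017G021800, with BED zinc finger and hAT domains as found in transposases and also the 1 member of the transposase list, had 26.5 points in CG, and a PHD zinc finger gene (Potri.005G173200) 19.5 in CHG in the authors' deposited table.

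Expression level was set beside the KD5 gain in each context. Across CG promoters Spearman's rho between KD5 gain and logCPM was -0.27 over 49 promoters, across CHG -0.04 over 30 and across CHH -0.08 over 21. These values run over genes, not replicates. The gains come from 1 pair of bisulfite libraries, while the logCPM comes from the authors' separate expression comparison of the knockdowns and WT. In CG the median logCPM was 3.72 for the 20 promoters at 30 points or more and 4.87 for the other 29. In CHG it was 3.32 for the 3 at 30 points or more and 4.63 for the other 27. In CHH it was higher for the 7 at 30 points or more, 6.04, than for the other 14, 4.58, although rho was below 0 there too. The 7 CHH promoters include 3 of strongly expressed genes in the authors' deposited table, PDF1 (logCPM 8.68), PSBR (7.80) and the EF-hand gene (7.49).

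Counted by gene, 17 of the 29 genes at 30 points or more had a negative logFC (58.6%), against 38 of the other 54 (70.4%) and 55 of all 83 (66.3%). At a limit of 40 points this order turned, with 7 of 9 genes negative (77.8%), against 48 of the other 74 (64.9%). The median logCPM was 4.04 for the 29 genes and 4.84 for the 54. A logCPM under 3 was found in 11 of the 29 genes and 10 of the 54. The median absolute logFC was 1.10 for the 29 and 0.99 for the 54. None of these differences was tested.

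**Figure D4:**
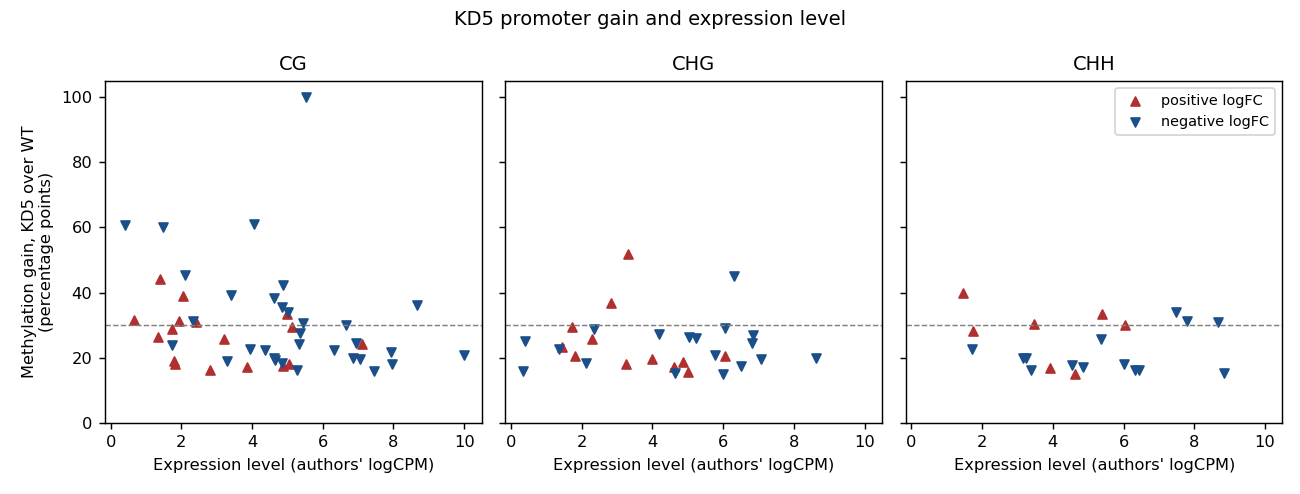
KD5 methylation gain over WT (y axis, percentage points) against expression level (x axis, the authors' logCPM), 1 point per promoter and 1 panel per context, with upward triangles for a positive and downward triangles for a negative logFC. At 30 points or more (dashed line) the CG promoters have a median logCPM of 3.72 and the CHH promoters one of 6.04.

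Some promoter genes were also listed for their transcribed region. Of the 29 genes at 30 points or more, 6 stood in a transcribed region table (20.7%), against 24 of the other 54 (44.4%). At a limit of 25 points it was 12 of 39 genes, against 18 of the other 44. At 40 points it was 1 of 9 genes, against 29 of the other 74. Among all promoter genes, 36.1% stood in a transcribed region table. By context, the median KD5 gain in CG was 22.3 points for the 17 promoters of genes also listed for the transcribed region in CG, and 30.9 for the 30 of genes in no transcribed region table. In CHG it was 19.6 points for 9 promoters and 25 for 17. In CHH it was the other way, 29.1 points for 6 promoters and 18.0 for 13. PDF1 was listed for its transcribed region in CG and CHH, the same contexts as its promoter, and CSLD3 in all 3. The transcribed region tables hold no methylation difference, so the size of the gain there is not analysed here.

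The windows lay on 19 chromosomes. On chromosome 1 lay the windows of 24 genes, 14 of them with a KD5 gain of at least 30 points, against 15 of the 59 genes with windows elsewhere. Of these 24 windows, 6 belong to genes whose identifiers name another chromosome. Identifiers on chromosome 1, the longest poplar chromosome, were held by 18 of the 83 genes, and 10 of these 18 had a KD5 gain of at least 30 points, against 19 of the 65 genes elsewhere. Of those 10, 8 had a negative logFC, with GTP cyclohydrolase II and the ribonuclease H-like gene as the exceptions. Among all 29 genes at 30 points or more, which include these 10, it was 17 (58.6%). Negative values were as common at lower gains on this chromosome. Of the 8 genes with such identifiers under 30 points, all but CSLD3 (logFC 1.79) had a negative logFC. On chromosome 17, UCP5 and Potri.017G047500 lie 34378 bases apart by their windows. Their KD5 gains were 44.1 points in CG and 15.9 in CHG in the authors' deposited table, and their logFC values had opposite signs, 4.24 and -3.11. On chromosome 5, the windows of VHA-C2 and of a methyltransferase superfamily gene (Potri.005G236600) lie 89142 bases apart. Their KD5 gains were 16.2 points in CHH and 17.0 in CG in the authors' deposited table, with logFC values of -0.82 and 1.17.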

How the data were processed

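The deposited tables of the authors' own comparisons were used, 3 for promoters and 3 for transcribed regions, with no value per library. Sequencing depth and coverage are unknown. Bismark and methylKit are the tools named, per the submitters' processing notes. No version, filter or genome build is stated. Methylation differences were deposited by the authors in percentage points and were multiplied by -1. The authors' deposited logFC and logCPM, log values per the file headers, were read as log2, although no base is stated. The FDR, an adjusted p-value of expression as deposited by the authors, is below 0.05 in every entry. Window start and end were ordered, and a start above its end was read as the minus strand.

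Medians, counts and Spearman's rho were computed with Python 3.11.15, pandas 2.3.3 and SciPy 1.17.1, and the code was checked on made-up tables. No test was run. A gain of 30 points served as the limit for counting. The members and lists were chosen with earlier results of these data known. Abbreviations in the word lists match only as whole words, a rule added after seeing the data. Named are, per context, the 10 largest and 3 smallest KD5 gains, genes in several contexts, up to 4 members per list (largest gain), every DNA methylation gene, and, chosen after their values were seen, neighbours under 100000 bases apart. Of the genes in several contexts, some stand in the plot by context only.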

Additional observations from a re-analysis of the deposited data

How the results depend on the processing

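No overlap of windows was found within a context, so merging them changed nothing. Of 51 recomputed values 25 stayed within their limits (0.05 for medians, 1.5 times for counts). Merging could not move a value, while means and counts at other limits were likely to differ, so this share does not measure stability. With windows on the chromosome of the identifier only, the median KD5 gain was 24.4 points in CG, 21.5 in CHG and 21.3 in CHH, and the median logCPM of genes at 30 points or more was 4.33. With an expression FDR below 0.005 (16 CG, 7 CHG and 5 CHH promoters) the medians were 22.5, 18.2 and 19.9 points, and 7, 0 and 1 promoters reached 30. That left 8 genes, 4 with a negative logFC and 2 in a transcribed region table, with a median logCPM of 3.07. Means were 30.04 points in CG, 24.05 in CHG and 23.6 in CHH. At a limit of 25 points, 12 CHG promoters passed, and of 39 genes 12 were in a transcribed region table, with a median logCPM of 4.196. At 40 points, 7 CG and 0 CHH promoters passed, and of 9 genes 7 had a negative logFC and 1 was in a transcribed region table, with a median logCPM of 3.32. Without the CG gain of 100 points, a setting chosen after seeing the data, the CG median was 25.04 points and that logCPM 3.76. The cause of these shifts was not tested, beyond fewer promoters at stricter limits. No paired analysis was possible because each genotype is 1 library. Since coverage per region is unknown, the precision of a single gain cannot be stated, and leaving out a replicate was not possible.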

Other observations

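The promoters of 4 annotated genes that the word lists did not match were picked for their annotation after the values were seen. FBA2 (Potri.004G162400), a fructose-bisphosphate aldolase gene, had 20 points in CG in KD5 and 18.2 in KD2 in the authors' deposited table, at a logFC of -1.30. A ribose-5-phosphate isomerase gene (RPI2, Potri.008G127600) had 16.9 points in CHH in KD5 and 17.8 in KD2 in the authors' deposited table, at a logFC of 1.45. CYSB (Potri.001G032900), a cystatin that inhibits cysteine proteases, had 24.5 points in CG in KD5 and 23.3 in KD2 in the authors' deposited table. RL6 (Potri.002G035000), a small MYB-related gene, had 22.6 points in CHG in KD5 and 19.0 in KD2 in the authors' deposited table, at a logFC of -2.17 and a logCPM of 1.36. For all 4 the lines lay within 4 points of each other.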
